A study of Mus musculus with 7 samples.

Results

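The open chromatin of control muscle stem cells (MuSCs, the resident stem cells of skeletal muscle) was described from both ATAC-seq libraries labelled Control at 0 h. A member was a region of chromosomes 1 to 19 that held a peak in each of the 2 Control libraries. This rule kept 73882 of the 107487 merged Control regions (68.7%), and the merged peaks of all 4 ATAC libraries of the series came to 120444 regions. ATAC-seq uses a transposase that inserts sequencing adapters where DNA is accessible, so a peak marks a stretch that was cut more often than the background of its library.

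Control and TRF2KO libraries (2 each) came from primary MuSCs sorted from uninjured hind limb muscle. Their genotype field reads wild type for all 4, and the TRF2KO libraries were recognised by their titles. In the study, TRF2, a telomere-binding protein, was deleted in MuSCs by a tamoxifen-inducible Cre driven from the Pax7 locus. The study's text calls the ATAC-seq controls wild type or control, its mice were on a C57BL/6 background, and tamoxifen was started in young adults. Whether the Control mice of these libraries carried the Cre or received tamoxifen, their age at sorting and the number of animals per library are not given in the sources used here. The other 3 libraries were CUT&Tag (2 TRF2, 1 IgG) from wild-type MuSCs of the tibialis anterior, labelled as collected 3 days after notexin injury. For these, the methods of the study name other details, namely an earlier time after injury, control mice with a Pax7-driven Cre and a tdTomato reporter, and gastrocnemius in addition to tibialis anterior, and the conflict was not resolved here. Cells were released from muscle by enzyme digestion before sorting, so the libraries describe freshly sorted rather than undisturbed cells.

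Promoters, the sequences at transcription start sites, are open in most cell types because the transcription machinery assembles there. Enhancers lie away from starts, are bound by lineage transcription factors and differ far more between cell types. In MuSCs the paired-box factor Pax7 marks the lineage, Myf5 and Myod1 encode basic helix-loop-helix factors that bind E-box sequences, and Calcr encodes the calcitonin receptor, which is typical of the quiescent state.

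The sequences below are 200 bases centred on the summit of Control replicate 1, on the plus strand of mouse build GRCm38 (RefSeq assembly GRCm38.p6). The first 5 show the strongest region assigned to each of the 4 identity genes and the Pax7 promoter, and the last 5 show strong elements far from starts and a strong promoter. Capitals mark CAGCTG (the E-box preferred by myogenic factors), TGANTCA (AP-1, the Fos and Jun dimer), TTGGCA (bound by nuclear factor I), GGGCGG (SP and KLF factors), CCGGAAG (ETS factors) and GCGCATGCG (NRF1), searched on both strands.
Pax7 intron, chr4:139771392-139771591: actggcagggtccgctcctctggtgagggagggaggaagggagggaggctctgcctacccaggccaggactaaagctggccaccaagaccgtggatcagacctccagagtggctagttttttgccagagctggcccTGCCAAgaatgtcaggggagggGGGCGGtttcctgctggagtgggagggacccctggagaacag
Pax7 promoter, chr4:139833155-139833354: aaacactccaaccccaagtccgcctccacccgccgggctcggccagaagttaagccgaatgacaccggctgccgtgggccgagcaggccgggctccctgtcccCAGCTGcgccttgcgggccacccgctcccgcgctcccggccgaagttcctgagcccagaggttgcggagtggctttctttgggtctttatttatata
Myf5 promoter, chr10:107486089-107486288: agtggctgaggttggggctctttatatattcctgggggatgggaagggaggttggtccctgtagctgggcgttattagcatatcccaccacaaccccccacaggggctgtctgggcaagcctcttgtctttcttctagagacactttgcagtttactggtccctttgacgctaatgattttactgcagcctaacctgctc
Calcr intron, chr6:3741319-3741518: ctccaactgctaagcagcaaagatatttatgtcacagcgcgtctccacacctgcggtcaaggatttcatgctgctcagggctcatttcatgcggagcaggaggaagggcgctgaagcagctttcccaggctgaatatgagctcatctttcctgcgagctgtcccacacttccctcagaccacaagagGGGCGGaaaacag
Myod1 promoter, chr7:46376276-46376475: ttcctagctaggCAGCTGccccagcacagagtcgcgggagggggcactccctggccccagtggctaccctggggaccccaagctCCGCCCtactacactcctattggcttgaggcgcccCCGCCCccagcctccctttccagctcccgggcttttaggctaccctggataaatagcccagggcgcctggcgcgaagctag
Heyl upstream, chr4:123228388-123228587: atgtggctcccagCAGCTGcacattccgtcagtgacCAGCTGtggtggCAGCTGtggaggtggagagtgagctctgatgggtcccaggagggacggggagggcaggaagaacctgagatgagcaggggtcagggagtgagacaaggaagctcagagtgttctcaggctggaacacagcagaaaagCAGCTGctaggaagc
Fgfr4 downstream, chr13:55171703-55171902: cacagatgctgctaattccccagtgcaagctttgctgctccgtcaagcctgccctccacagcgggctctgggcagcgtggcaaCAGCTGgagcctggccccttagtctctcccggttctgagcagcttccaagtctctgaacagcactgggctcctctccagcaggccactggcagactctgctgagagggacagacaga
Cxcr4 distal, chr1:128508981-128509180: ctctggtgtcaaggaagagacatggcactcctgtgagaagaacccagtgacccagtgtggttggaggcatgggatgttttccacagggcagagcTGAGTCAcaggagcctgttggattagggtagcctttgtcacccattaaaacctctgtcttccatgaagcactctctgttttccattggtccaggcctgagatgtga
Fos upstream, chr12:85455448-85455647: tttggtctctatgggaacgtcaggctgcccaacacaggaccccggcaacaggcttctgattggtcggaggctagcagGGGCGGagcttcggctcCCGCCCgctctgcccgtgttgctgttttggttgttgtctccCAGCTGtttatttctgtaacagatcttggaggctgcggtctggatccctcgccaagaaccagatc
Dnpep promoter, chr1:75317643-75317842: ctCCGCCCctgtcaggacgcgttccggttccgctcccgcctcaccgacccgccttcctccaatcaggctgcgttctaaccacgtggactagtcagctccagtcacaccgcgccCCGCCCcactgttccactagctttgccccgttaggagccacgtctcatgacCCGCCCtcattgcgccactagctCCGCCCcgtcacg
The Heyl element held 4 copies of CAGCTG, and the elements near Fgfr4 and Fos and the Myod1 and Pax7 promoters held 1 each. The Cxcr4 element held 1 AP-1 match. The Dnpep promoter held 4 copies of the SP/KLF sequence, whereas the Myf5 promoter window held no match to any of these 6 motifs. A match is a description of letters and not of binding.

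The Control libraries held 87394 peaks (replicate 1) and 98558 peaks (replicate 2) on these chromosomes. Fold is the fragment height at the summit of a peak relative to the height its library would have without peaks, with 1 added to both, and all folds of a library fell on whole heights over a single background of 3.35 fragments in replicate 1 and 4.56 in replicate 2. Read totals were not analysed here, so these backgrounds stand for depth, and replicate 2 was the deeper library. The regions covered 75.2 Mb, or 3.05% of the chromosomes, and their median width was 771 bp. Their median fold was 11.0 in replicate 1 and 9.90 in replicate 2, which corresponds to 47 and 54 fragments at the summit. The strength of a region was set by its percentile within each library's own peak list, and the lower of both percentiles was used, because folds depend on depth.

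Fold was closely matched between the replicates. Across the 73882 regions the Spearman correlation of fold was 0.971, and 95.8% of regions lay within 1.5 times of the median ratio of the replicates. These points share a gene annotation, a caller and a sequence bias, so the correlation is a description across regions. The 33605 regions called in only 1 Control library were weak: peaks outside the common set had a median fold of 3.45 in replicate 1 and 3.06 in replicate 2, against 10.8 and 9.72 for peaks inside it. Of these single-library regions, 22671 came from replicate 2 and 10934 from replicate 1. In these bulk libraries, more cells with an open site and more cutting per cell cannot be told apart.

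Regions over a transcription start formed a class of their own. Within 3 kb of an annotated start lay 28085 regions, 38.0% of all (exact Clopper-Pearson 95% interval 37.7 to 38.4, counting error only), and they held 49.8% of the open bases. Introns held 22547 regions (30.5%), intergenic sequence 19006 (25.7%), exons 2548 (3.45%), 3′ UTRs 1521 (2.06%) and 5′ UTRs 175. The 16078 regions that lay over a start had a median width of 1456 bp and median folds of 36.6 and 32.9 in replicates 1 and 2. The 12007 regions within 3 kb that did not touch a start had a median width of 658 bp and median folds of 8.51 and 7.74. These were close to the values of the 45797 distal regions, those more than 3 kb from any start, which had a median width of 653 bp and median folds of 9.21 and 8.28. Regions less than 1 kb from a start without touching it had median folds of 8.05 and 7.20, and regions 10 to 50 kb away had 9.44 and 8.46.

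**Figure D1:**
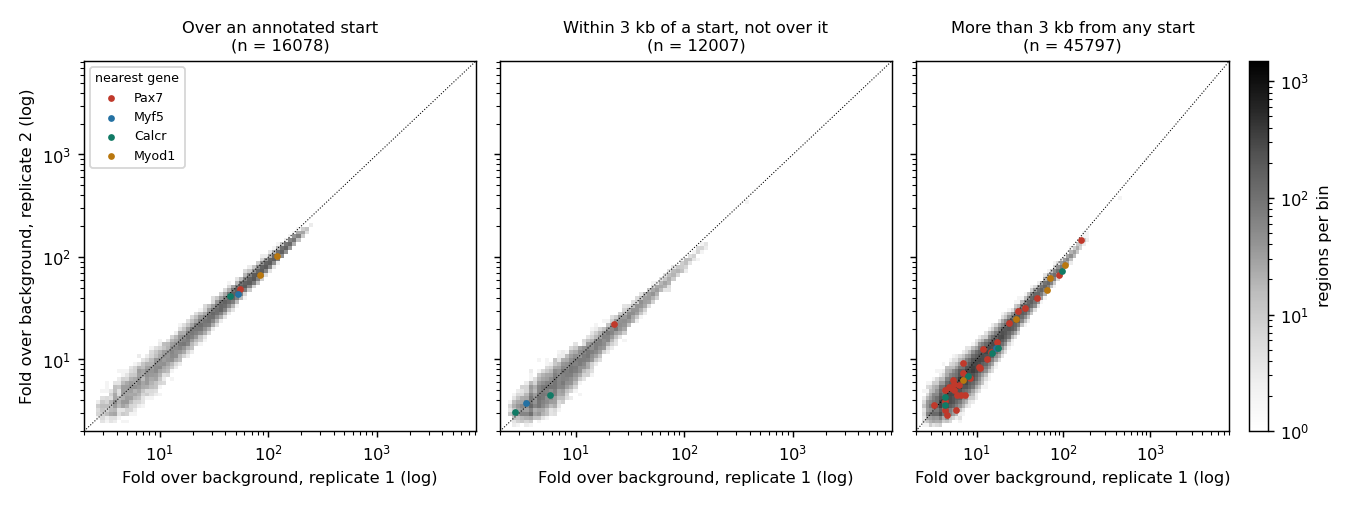
Fold over background of each Control region in replicate 1 (x axis, log scale) and replicate 2 (y axis, log scale), shaded by the number of regions per bin, for regions over a start, within 3 kb of a start without touching it, and more than 3 kb away. Coloured points are the regions assigned to Pax7, Myf5, Calcr and Myod1, and the dotted line marks equal folds. The regions follow the diagonal in all 3 panels, and those over a start reach higher folds, with medians of 36.6 and 32.9.

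Base composition separated the same classes. The median CpG content, as observed over expected from the base frequencies, was 0.611 over starts, 0.229 within 3 kb without touching a start and 0.217 in distal regions. Of the regions over a start, 8353 exceeded a ratio of 0.6 and had median folds of 47.6 and 43.0, while the other 7725 had median folds of 26 and 22.5. Strength and class moved together. When the regions were divided into quintiles by their lower percentile, 7.75% of the weakest quintile lay over a start and 57.3% of the strongest quintile did, and the median width went from 469 to 1631 bp.

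The strongest loci of the unfiltered lists were often repeat-masked. The first was over the start of the predicted gene Gm10800 at chr2:98666238-98667410, with folds of 4748 and 4271 in the Control replicates and 4998 and 5256 in the TRF2KO replicates, and 78.5% of its bases were soft-masked as repeats in the assembly. The next were Gm26917 on chromosome 17 (2159 and 1823), an intergenic region 68025 bp from Axin2 (1545 and 1308) and an intronic region 15603 bp from the start of Gtpbp4 (1355 and 1128). An intronic region lay in an intron of any annotated gene and is named here by the nearest protein-coding start. Loci at Gm10718, Lars2, Cdk8, Gm21738, Gm33838 and Gm9075 completed the first 10, with folds from 919 to 1244 in replicate 1. Of the 10 strongest, 6 were masked over more than 50% of their bases. Only 1 of them, nearest to Gtpbp4, overlapped the authors' Control consensus, which was made after removing blacklisted regions. Which of the other 9 were blacklisted was not tested. Among the 10 strongest distal regions of the unfiltered lists, intronic regions nearest to Cdk8, Filip1l and Jarid2 and a 3′ UTR region nearest to Lars2 appeared. Again only the one nearest to Gtpbp4 was in the consensus. Values for strength are therefore given below for the 66702 regions (90.3%) in the consensus.

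Within the consensus, 9 of the 10 strongest loci were promoters by the 3-kb rule. The leading regions, nearest to Gtpbp4 and Mpnd, were narrow (635 and 259 bp) and masked over 54.6% and 48.3% of their bases. The consensus therefore still held some narrow, heavily masked loci. After Gtpbp4 and a narrow region 156 bp from Mpnd, the order was Arrdc2, an arrestin-domain gene, with folds of 245 and 209.7 in Control and 258 and 241 in TRF2KO, then Aph1b, a subunit of gamma-secretase, the protease that cleaves Notch, with 241 and 191, and Dnpep, an aspartyl aminopeptidase, with 235 and 203. Garem1, the transcription factor gene Sp1, Hip1, Rab40c and Arhgap35 followed, with folds between 223 and 232 in replicate 1 and between 185 and 195 in replicate 2. The order of these 8 genes differed between the replicates, so it is not resolved. Of the 100 strongest consensus regions, 96 were promoters by the 3-kb rule and 94 lay over a start. Their median width was 2280.5 bp.

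Some strong regions away from starts had a listed MuSC gene as the nearest protein-coding gene, namely Heyl, Fgfr4 or Cxcr4. The other strong distal regions named here were nearest to genes outside the MuSC lists. Which gene a region acts on was not tested. The strongest distal consensus region after Gtpbp4 was 51512 bp from Wnt7b, a secreted Wnt ligand, with folds of 198 and 172 in the Control replicates and 215 and 196 in the TRF2KO replicates. A second one, 27366 bp from Wnt7b, had 183 and 147. The region 3189 bp upstream of Heyl, a Notch effector of quiescent MuSCs, was 4904 bp wide with folds of 195 and 170.1 in Control and 179 and 175 in TRF2KO. The region 14569 bp from the start of Fgfr4, a fibroblast growth factor receptor of the myogenic lineage, had 189.9 and 168, and that 81870 bp from Cxcr4, a chemokine receptor, had 186 and 158. An exon region nearest to Ddc and regions near Serpinh1 (a collagen chaperone), Irf2bpl and Ptpn1 completed the first 10, with replicate 1 folds between 178 and 191. A region 17074 bp upstream of Fos had folds of 169 and 139. All of these were also peaks in both TRF2KO libraries, with folds between 165 and 215 apart from the Gtpbp4 region.

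Width picked out other genes than strength did. None of the 20 widest consensus regions was among the 20 strongest, and 5 of the 100 widest were among the 100 strongest. Width was measured as the bases covered by peaks in both Control libraries. The unfiltered list was led by regions at Sfi1 (50341 bp) and Mroh2a (44542 bp) and by a masked locus at Gm10718 (32283 bp), none of them in the consensus. In the consensus the widest was at Hsph1, a heat-shock chaperone of the Hsp110 family, where peaks covered 31514 and 31878 bp in the Control replicates and 30014 and 29112 bp in the TRF2KO replicates. The long noncoding RNA Neat1 followed with 29071 and 29307 bp in Control. A region over 2610306O10Rik, 1845 bp from Bag3, which encodes an Hsp70 co-chaperone, had 26488 and 26228 bp, and Hspa1b, an inducible Hsp70, had 26485 and 25259 bp. Atf3, a stress-induced transcription factor, had 21196 and 22630 bp. The loci at Mir23a (18522 and 19521 bp), Erfe (17939 and 19287 bp), Sdc4, Jund with Iqcn (16348 and 17258 bp) and Gpx4, a glutathione peroxidase (16547 and 16200 bp), completed the first 10. Dnajb1 and Hsp90ab1, also chaperones, were 11th and 29th by width. These chaperone genes were singled out after their values were seen.

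Immediate early genes, which are switched on within minutes of a stimulus, were concentrated among the widest regions. Of the 14 listed activation and immediate early genes, 12 had a start inside 1 of the 100 widest consensus regions, compared with 106 of 20807 protein-coding genes (0.509%). The 12 were Fos, Fosb, Jun, Junb, Jund, Egr1, Atf3, Ier2, Klf6, Nr4a1, Dusp1 and Zfp36. The list was chosen with earlier results of these data known, so the contrast is a description and was not tested. Over the 14 genes, the covered bases ranged from 5267 to 21196 bp in Control replicate 1 (median 10914) and from 5258 to 22630 bp in replicate 2 (median 11379.5). At Fos, peaks covered 11772 and 12135 bp in Control and 10833 and 10354 bp in TRF2KO, with Control folds of 177 and 159.8. The TRF2KO medians over the 14 genes were 10158 and 10016 bp. Myc and Klf4, with regions of 5283 and 6315 bp, were outside the 100 widest, although above the median of 1543 bp for all open promoters.

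Stem cell genes also had wide regions. The Pax7 promoter region, 15689 bp, was covered over 15007 and 14390 bp in the Control replicates and 13541 and 12117 bp in the TRF2KO replicates, and was 14th among consensus regions by width. Sdc4, a syndecan on the MuSC surface, had 18148 and 18556 bp in Control, and Des, the muscle intermediate filament desmin, 13447 and 13708 bp. No gene of the lists for myogenic differentiation, mature myofibre, niche collagens, endothelium, blood and immune cells, fibro-adipogenic progenitors, tendon, smooth muscle or Schwann cells had a start in the 100 widest, whereas Heyl did. Among distal consensus regions, the widest was an intronic region nearest to Flrt1, 39584 bp from its start and outside that gene. The Pax7 intron at chr4:139764318-139773953 followed. Because the edges of a region were set by Control peaks, lower coverage of it in TRF2KO is in part fixed by that choice. Ranked in the same way, 9 of the 10 widest consensus regions overlapped the 10 widest regions of the TRF2KO libraries.

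**Figure D2:**
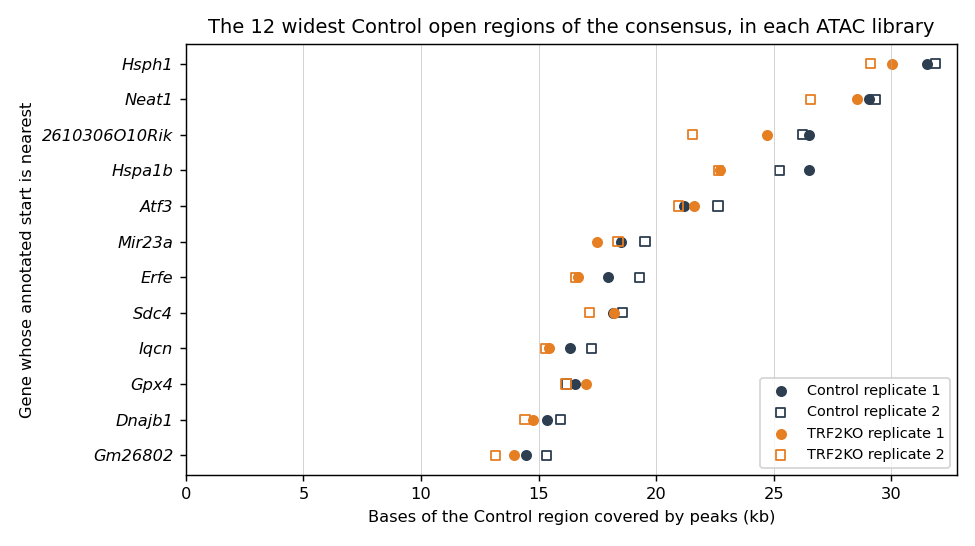
Bases of each of the 12 widest consensus regions that were covered by peaks (x axis, kb) in the 2 Control and 2 TRF2KO libraries, with each region named by the gene with the nearest annotated start (y axis). Iqcn marks the region that also holds Jund and Gm26802 the region that also holds Fosb. Hsph1 leads with 31514 and 31878 bp in the Control replicates.

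Open regions were unevenly shared among genes. Each region was assigned to the protein-coding gene with the nearest annotated start, and the sequence nearer to that gene than to any other is called its ground. Of 20807 protein-coding genes, 5550 (26.7%) had no region, the median gene had 2.00, and the 1983 genes with at least 10 regions (9.53%) gathered 49.0% of all regions. Gse1, a chromatin-associated protein, had the most, with 80 regions. All peaks nearest to it, in or outside these regions, numbered 95 and 124 in the Control replicates and 98 and 96 in the TRF2KO replicates. Nfib, a nuclear factor I gene, Rora, a nuclear receptor gene, and Auts2 each had 79, and Cdh13, an atypical cadherin, 75. Zbtb20 (74), Zfp36l1 (73), Nav2 (72), Rbms3 (69) and Pde4d (67) followed, then Tcf4 (65), Med13l (64), Tns1 (63), Lpp (62), Lrig1 (60), Zfp608 (60), Zmiz1 (58), Camta1 (58), Gli2 (57) and Rgma (57). Of these 20, transcription factor genes were Nfib, Rora, Zbtb20, Tcf4, Zfp608, Camta1 and Gli2. The limit of 20 fell within a tie, since Runx1, Ank3 and Pik3r1 also had 57.

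Counts followed the ground a gene had. Across genes the Spearman correlation of regions with ground was 0.497, and the 20 genes had a median ground of 811 kb against 43.5 kb for all. They held 1.83% of the regions on 0.729% of the ground. Density nevertheless differed widely among them, from 3.93 regions per 100 kb at Pde4d and 4.07 at Auts2 to 18.9 at Lrig1 and 21.3 at Gse1, against 3.00 over all ground. Lrig1 encodes an inhibitor of receptor tyrosine kinases. Zfp36l1, an RNA-binding protein gene only 5.26 kb long, drew its 73 regions almost wholly from outside itself, since 2 lay in the gene. Most of the regions were distal: 16.3% of those at the 20 genes were promoters, against 38.0% of all.

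Among genes with at least 10 regions, the densest ground was at Hnrnpa2b1, an RNA-binding protein gene, with 10 regions in 22.2 kb (45.1 per 100 kb). Cbx8, a Polycomb subunit, had 35.1 per 100 kb, Lasp1 34.5, Nfix 33.6, Flrt1 33.4, C1qtnf1 32.9, Pald1 32.6, Inka2 31.4, Popdc2 30.7 and Lmod2 30.6. Nfix, a nuclear factor I gene that acts in fetal myogenesis, had 26 regions, with 31 and 33 peaks in the Control replicates and 32 and 30 in the TRF2KO replicates. Flrt1 had 28 and 33 peaks in the Control replicates and 14 and 16 in the TRF2KO replicates, the widest gap among these 10 genes. Of its 24 regions, 13 held a peak in TRF2KO replicate 1 and 14 in replicate 2. The genes were chosen by Control counts, which favours an excess in Control, and the Flrt1 gap was picked out after its values were seen and was not tested.

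**Figure D3:**
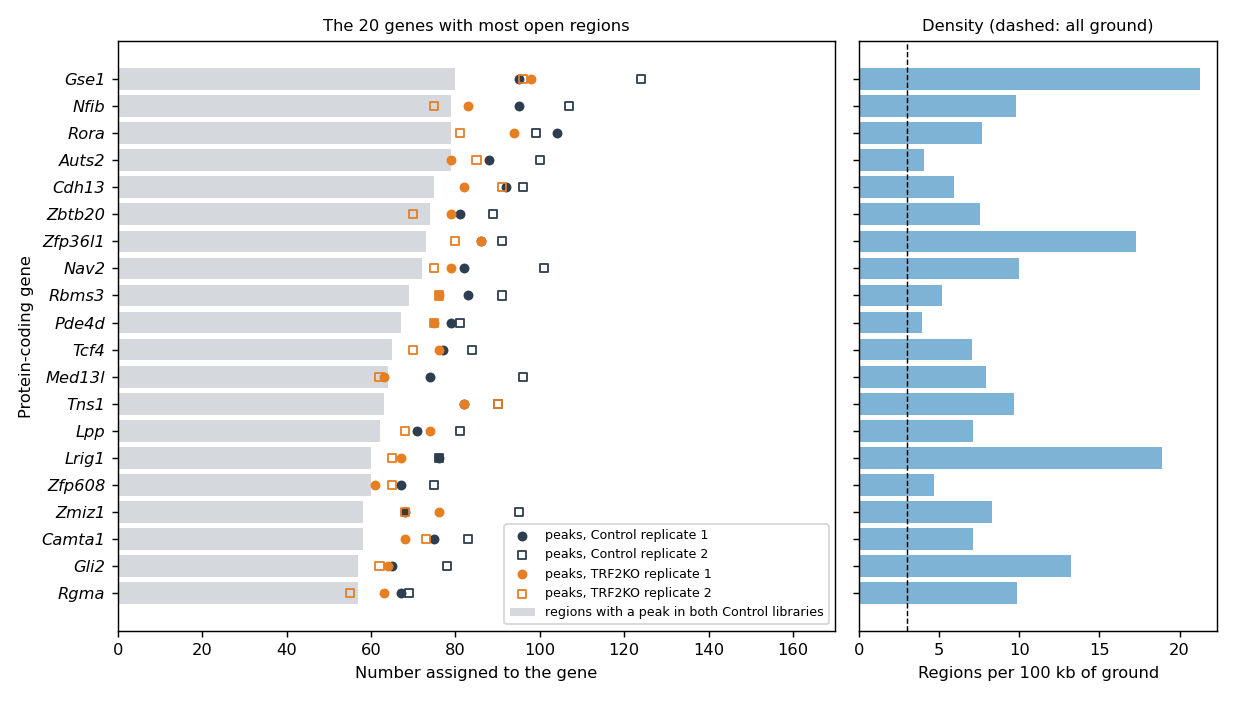
The 20 protein-coding genes with most Control regions. Left, regions with a peak in both Control libraries (bars) and peaks in each of the 4 ATAC libraries (points). Right, regions per 100 kb of ground, with a dashed line at 3.00 for all ground. Gse1 leads with 80 regions and a density of 21.3 per 100 kb.

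The 4 identity genes differed in how their open regions were arranged. Pax7 (chromosome 4, 139737062 to 139833528, minus strand) had 32 regions on 157 kb of ground, 20.3 per 100 kb, a count reached by 0.894% of protein-coding genes. Of these, 23 were intronic and 2 exonic, and together the 32 covered 79.1 kb. Fold ranged from 3.22 to 161 in replicate 1 and from 2.88 to 148 in replicate 2, with medians of 7.13 and 7.02. The strongest was not the promoter, with folds of 54.5 and 48.4, but the intronic region 59054 bp from the start whose summit sequence is shown above, with 161 and 148 in Control and 158 and 155 in TRF2KO. A further intronic region 84769 bp from the start had 88.6 and 66.6. At 27074 bp from the start, folds were 23.9 and 22.5 in the Control replicates and 48.5 and 49.7 in the TRF2KO replicates. Both TRF2 libraries had a peak in that region (folds 5.79 and 4.98), as at 9.03% of all Control regions. That region was chosen after its values were seen and was not tested.

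Myod1 had 7 regions in 50.6 kb of ground, all of them peaks in both TRF2KO libraries. Its promoter had folds of 121 and 102 in Control and 110.5 and 100.1 in TRF2KO. The 5 regions 22247 to 37958 bp upstream formed a cluster at chr7:46337258-46354227, with replicate 1 folds from 28.8 to 104 and replicate 2 folds from 24.7 to 84.0. Calcr had 9 regions, and as at Pax7 the strongest lay in an intron, 9929 bp from the nearest start, with folds of 96.7 and 72.7 against 44.2 and 41.2 at the promoter. Myf5 had 3 regions, of which the promoter was 5690 bp wide with folds of 52.0 and 43.9. The intronic Calcr region was a peak in both TRF2KO libraries, with folds of 89.9 and 87.4.

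Lists of genes typical of cell types were then compared by their promoters. A promoter was called open when a Control region overlapped the 500 bp on either side of any annotated start of the gene. This held for 13810 of 20807 protein-coding genes (66.4%), and their median lower percentile was 88.5. All 4 identity genes and all 20 genes of the MuSC surface and quiescence list were open, as were all 9 collagen genes of the MuSC niche. The percentile of the surface and quiescence promoters went from 36.1 at Sdc3, with folds of 6.21 and 7.20, to 99.8 at Cdh15 (M-cadherin), with 191 and 169.5. Of the genes whose proteins can be used to sort MuSCs, Itga7 (α7-integrin) had promoter folds of 73.4 and 68.0, Vcam1 23.7 and 22, and Cd34 23.0 and 20.2. The Itga7 percentile was 93.7, while those of Vcam1 (76.3) and Cd34 (75.7) lay below the median of 88.5. Of the upstream myogenic regulators, 15 of 16 were open and Tcf21 was not. All 14 activation and immediate early genes were open with a median percentile of 99.0. All 13 genes of shared cell machinery were open too, with a median of 94.6, so a fully open list was not particular to MuSC genes.

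Of 14 myogenic differentiation genes 10 were open (71.4%), near the 66.4% of all genes, and their median percentile was 37.7. The spread within the list was wide. Tnnt1, a slow troponin T, had folds of 45.8 and 32.9, Cdkn1c, a cell cycle inhibitor, 41.9 and 39.2, and Myog, the differentiation factor myogenin, 26.7 and 20.9. Lower folds were found at Ckm (muscle creatine kinase), with 7.36 and 5.4, and Mymk (myomaker, needed for fusion), with 3.45 and 3.60. Mylpf had 195 and 165 from a region shared with the divergent start of Tbc1d10b, and no region had Mylpf as its nearest gene. Myh3, Myh8, Myl1 and Mymx were not open. Of 14 mature myofibre genes 9 were open, with a median percentile of 82.6, from Ttn (titin) at 6.21 and 4.86 to Pvalb (parvalbumin) at 57.3 and 41.9.

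Markers of other cells were counted by the same rule. These counts cannot check the sort, because an open promoter need not mean that the cell type was present. Open shares of endothelial (75.0%), smooth muscle and pericyte (87.5%) and Schwann and glial genes (71.4%) exceeded the 66.4% of all protein-coding genes. Those of fibro-adipogenic progenitor, tendon, blood and immune (16.7%), germ line (16.7%) and liver and pancreas genes (8.33%) lay below it. Of 12 blood and immune genes, 2 were open, Cd68 with folds of 8.05 and 7.38 and Coro1a with 19.1 and 17.8, while Ptprc, which encodes CD45, and 9 others were not. Liver and pancreas genes had 1 of 12 open (Ins2, 3.68 and 3.60) and germ line genes 2 of 12 (Dazl with 46.0 and 39.1, Gdf9 with 116 and 98.3). For endothelium, Pecam1, Cdh5 and Emcn were not open, and 9 of 12 were, from Tie1 with 2.99 and 2.88 to Vwf with 84.5 and 64.6. Smooth muscle and pericyte genes had 7 of 8 open (median percentile 83.6), fibro-adipogenic progenitor genes 6 of 12, with Ly6a, which encodes the sorted-out Sca1, and Dcn not open, Schwann and glial genes 5 of 7 and tendon genes 2 of 5. The strongest promoters of these 4 lists were Acta2 (51.8 and 43.7), Gsn (68.1 and 58.1), Prx (98.5 and 78.5) and Scx (70.0 and 52.0). The 32.8 kb of ground of Ly6a held no peak in either Control library and 3 in each TRF2KO library. By the same rule the Ly6a promoter was not open in TRF2KO either. The gap in peak counts was picked out after its values were seen and was not tested. Whether other cells were present in the sort was not tested. Open chromatin at a gene is not expression, and promoters of silent genes can be open.

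**Figure D4:**
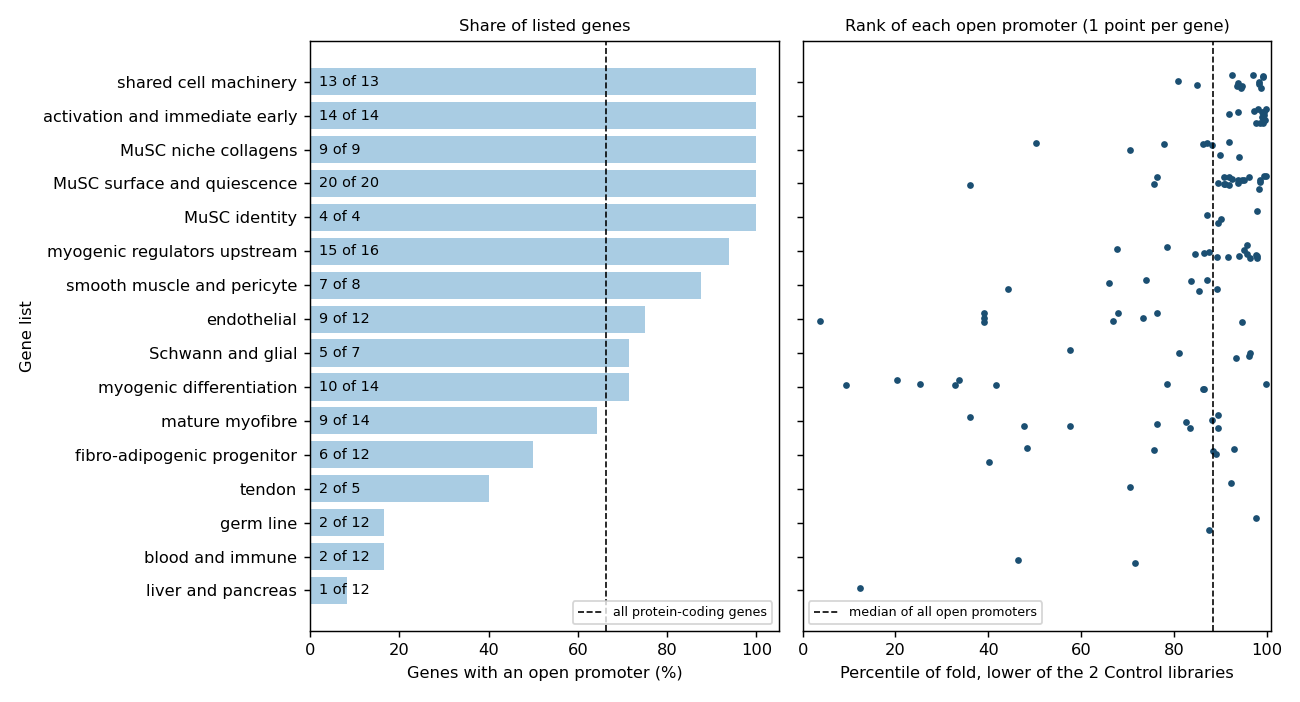
Left, share of the genes of each list with an open promoter in Control MuSCs (bars, %), with the counts written on the bars and a dashed line at 66.4% for all protein-coding genes. Right, percentile of fold of each open promoter (1 point per gene, the lower of the Control libraries), with a dashed line at the median of 88.5 for all open promoters. The immediate early genes crowd at the right edge, and open promoters of the differentiation list spread to low percentiles.

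Most Control regions were also peaks in the TRF2KO libraries, and the share rose with strength up to the middle quintile and then levelled off. A peak was present in TRF2KO replicate 1 at 88.6% of regions, in replicate 2 at 86.6% and in both at 82.5%. The share with both was 96.4% over starts, 76.5% within 3 kb without touching a start and 79.2% in distal regions. It was 43.5% in the weakest quintile, 95.6% in the middle one and 100% in the strongest. Regions with no TRF2KO peak at all numbered 5378 (7.28%), and the strongest of those in the consensus, 15191 bp from Fgfr1op, had folds of 15.6 and 14.4. The TRF2KO libraries were the shallower beside Control replicate 2, with backgrounds of 3.37 and 3.41 fragments, and the part of depth in these shares was not tested.

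The composition of the peak lists was close between genotypes. Promoters made up 36.9% and 36.9% of peaks in the Control replicates (36.9% ± 0.0554, SD, n = 2) and 38.0% and 38.5% in the TRF2KO replicates (38.2% ± 0.347, SD, n = 2). The difference of -1.31 percentage points had an exact two-sided permutation p of 0.33, which is the smallest that 2 against 2 libraries can give. Of the 13810 genes with an open promoter in Control, 98.0% were open by the same rule in TRF2KO, and of the 13716 open in TRF2KO, 98.6% were open in Control. Over the 16 lists, 128 of 184 genes were open in Control and 123 in TRF2KO, with 119 in both. The 9 calls in Control alone were Mymk, Tnnt2, Acta1, Actc1, Ttn, Atp2a1 and Tnni2 of the muscle lists, Col6a3 and Ins2. The 4 calls in TRF2KO alone were Pecam1 (endothelial), Rgs5 (pericyte), S100b (glial) and Cela1 (pancreas). The difference between genotypes in these calls was not tested. Among those in Control alone, the first 5 were weak, with Control folds between 3.45 and 6.21 in replicate 1 and percentiles from 9.41 to 36.1, while Atp2a1 and Tnni2 had TRF2KO peaks of 41.6 and 30 and of 26.8 and 26.1 in the same Control region. At Acta2, smooth muscle actin, folds were 51.8 and 43.7 in Control and 25.8 and 26.3 in TRF2KO, a difference chosen after its values were seen and not tested.

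Control regions with TRF2 CUT&Tag peaks were mainly strong promoters. Of the 6668 regions with a peak in both TRF2 libraries, 4876 lay over a start and 5167 were in the strongest quintile, and TRF2 peaks outside Control regions were not examined. A peak in both TRF2 libraries was found at 9.03% of Control regions, at 30.3% of those over a start, at 2.67% of those within 3 kb without touching a start and at 3.21% of distal ones, while the IgG library had a peak at 0.233% of all. By strength it was 0.883% in the weakest quintile and 35.1% in the strongest. The CUT&Tag cells came from injured muscle and the ATAC-seq cells did not, so the states cannot be matched.

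Motif shares at the summits differed between the distal regions and the starts. In windows of 200 bp at the summit of Control replicate 1, CAGCTG was present in 32.9% of the 45797 distal regions, against 9.63% of windows of the same length 900 bp to either side. TTGGCA was present in 22% against 9.98%, and TGANTCA in 16% against 5.86%. The CTCF core AGNGGGCNC had 5.4% against 1.97%, and the TEAD sequence GGAATGT 4.70% against 2.82%. In contrast, TGTGGTT (RUNX) had 5.0% against 4.96%, TGTTTAC (forkhead) 2.79% against 2.64% and CCAAT (NFY) 23.3% against 23.9%, while TAATTA (homeodomain) was less common at the summit, with 3.62% against 5.49%. The other E-box, CAGGTG, was also no more common at the summit, with 13.7% against 14.6%. Summits of the 2 replicates lay a median of 17.0 bp apart.

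**Figure D5:**
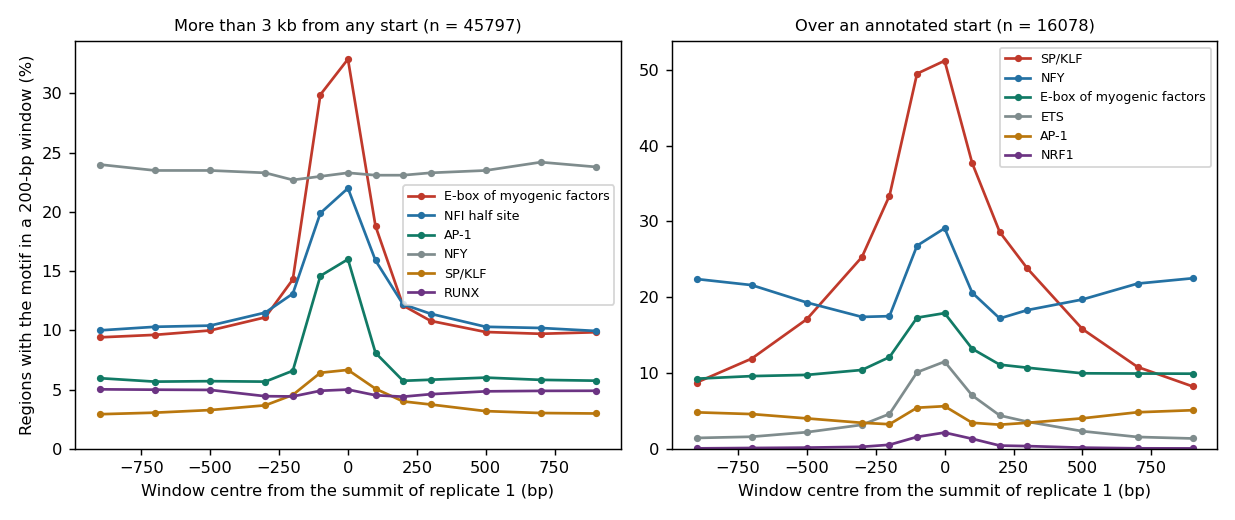
Share of regions with a motif in a 200-bp window (y axis, %) against the distance of the window centre from the summit of Control replicate 1 (x axis, bp), for distal regions (left) and regions over a start (right). In distal regions the CAGCTG line peaks at 32.9% at the summit and falls to 9.63% at 900 bp. Over starts the SP/KLF line peaks at 51.2%.

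The CAGCTG share was higher in stronger distal regions. It was 26.7% in the weakest quintile and then 29.9%, 32.4%, 37.6% and 45.3% in the strongest, and the AP-1 share went from 12.4% to 22.3%. CAGCTG or AP-1 was present in 59.7% of distal regions of the strongest quintile. Among the 100 strongest distal consensus regions, 48 held CAGCTG and 20 held AP-1. Of the 7 Myod1 regions 5 held CAGCTG at the summit, of the 32 Pax7 regions 11, of the 9 Calcr regions 3 and of the 3 Myf5 regions none. These sets mix promoters and distal regions, and 29.3% of all 73882 regions held CAGCTG. The Pax7 (34.4%) and Calcr (33.3%) shares were near that value, and the Myod1 share rests on 7 regions. Distal regions without a peak in either TRF2KO library had CAGCTG in 33.8% and AP-1 in 10.6%, against 33.2% and 17.0% of those with a peak in both.

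Regions over a start differed from distal regions in motif shares, although several motifs were more common at the summit in both classes. GGGCGG was present in 51.2% of the 16078 regions, against 8.49% of the flanking windows, CCGGAAG in 11.5% against 1.39% and GCGCATGCG in 2.14% against 0.0529%. AAGATGGCG (YY1) had 1.55% against 0.109% and TGACGTCA (cyclic AMP response element) 2.67% against 0.199%. CCAAT had 29.1% against 22.4%. CAGCTG was present in 17.9% against 9.58%, AP-1 in 5.62% against 4.95% and the CTCF core in 7.98% against 2.71%. In distal regions GGGCGG had 6.66% against 2.95% and TGACGTCA 0.618% against 0.128%. GTCACGC (PAX paired) had 2.74% against 0.401% over starts and 1.09% against 0.402% in distal regions. GC content is higher at starts (a median of 56.6%) than in distal regions (49.2%), and the part of base composition in these shares was not tested.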

How the data were processed

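MACS peak lists of the 7 libraries, and GoPeaks, SEACR and consensus lists of the ATAC libraries, were used as deposited. According to the methods of the study, reads were aligned to mm10 with Bowtie2 (version 2.5.4 in the submitters' processing notes), deduplicated with Picard 3.1.1 and filtered with SAMtools 1.10, and peaks were called per library with MACS3, SEACR 1.3 in its stringent mode and GoPeaks. The processing notes give MACS3 3.0.2, and the methods another release of version 3. MACS3 and GoPeaks settings and a shift for the transposase are not given in the sources used here, so summits may be off by a few bases. Each MACS peak carries the authors' fold enrichment, -log10 p, -log10 q and score, and the lowest -log10 q was between 1.39 and 1.51. SEACR regions carry the authors' signal, used here for position only. The authors' consensus was made with DiffBind 3.10.1 from the peaks of all 3 callers after removing blacklisted regions, and its score was not used.

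Regions were merged MACS peaks with at least 1 bp in a peak of each Control library. Starts and genes came from GENCODE M21, whose coordinates mm10 shares. Promoters were within 3 kb of a start, and distal regions were all others. Motifs were searched on both strands in GRCm38.p6. The code was tested on simulated intervals and sequences, in Python 3.11.15 with pandas 2.3.3, SciPy 1.17.1 and pysam 0.24.0. The genotype comparison was an exact two-sided permutation test over libraries, and every other value is a description, since the libraries are the only replicates. The design text of the series gives 2 biological replicates per ATAC-seq group, whereas the general methods of the study give at least 3 for all experiments, and 2 libraries per group were analysed. Members, gene lists and motifs were chosen with earlier results of these data known. Named were the 10 strongest, 10 strongest distal and 10 widest regions, the 20 genes with most regions, the 10 densest, the 4 identity genes and, for the other lists, the members of highest and lowest percentile. Other listed genes and regions named in the text were chosen after their values were seen. Alternatives are given at the end. Some genes are not reported here.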

Additional observations from a re-analysis of the deposited data

How the results depend on the processing

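Settings changed counts and shares more than directions. The number of regions was 67088 with -log10 q of at least 5, 66317 with 50% reciprocal overlap, 66702 in the consensus, 29808 for peaks also called by GoPeaks and SEACR, and 87394 to 98558 without replicate 2 or 1. In the order stricter q, reciprocal overlap, all 3 callers and consensus, the promoter share was 38.6%, 38.3%, 54.8% and 39.1%, and the share with both TRF2KO peaks 87.7%, 84.8%, 95.7% and 86.2%. With all 3 callers the TRF2 share was 19.1% and 7 of the 20 genes remained. Without either Control replicate these shares were 36.9% to 36.9%, 64.8% to 73.0% and 6.82% to 7.68%. The promoter share was 27.6% with a 1-kb window, 21.8% for regions over a start and 30.7% with protein-coding starts. In the consensus, 1 of the 10 strongest and 6 of the 10 widest loci remained. Counting regions in gene bodies and 10 kb on either side kept 10 of the 20 genes. Motif shares in 100-bp and 500-bp windows, which hold fewer and more positions, were 20.3% and 46.6% for CAGCTG, 9.22% and 24.0% for AP-1 and 12.7% and 37.0% for TTGGCA in distal regions, and 22% and 46.0% for GGGCGG (33.6% with 200 bp), 4.13% and 11.7% for CCGGAAG (7.21%) and 0.677% and 1.83% for GCGCATGCG (1.29%) in regions within 3 kb of a start. The Control minus TRF2KO promoter share reversed to 3.37 points with SEACR (59.8% and 71.5% in Control, 61.3% and 63.2% in TRF2KO, exact permutation p = 1.00), and the cause was not tested. With the replicate block (sign flips within replicate number) it was -1.31 points with an exact p of 0.50, the smallest possible with 2 pairs. Leaving out 1 library gave -1.55 to -1.06 points. Of 80 recounts of the 16 lists, 73 stayed within 1.5 times. The others were blood and immune genes (6 open with a 3-kb window, 1 at the start of the gene), germ line genes (5 with a 3-kb window) and liver and pancreas genes (3 with a 3-kb window, 0 at the start of the gene, 0 with the stricter q, 3 without replicate 1).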
